A study of Mus musculus with 4 samples.

Results

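The MHC class II antigen presentation genes measured here are 10 genes of the mouse: the chain genes H2-Aa, H2-Ab1 and H2-Eb1, the peptide-loading genes H2-DMa, H2-DMb1 and H2-DMb2, their inhibitors H2-Oa and H2-Ob, the invariant chain gene Cd74 and the transactivator gene Ciita. They were chosen by name, as every probe whose gene name, or current symbol by accession, was one of these, which gave 13 probes of the 55681 on the array. RNA came from adipocyte progenitor cells, which give rise to fat cells. They were taken by flow cytometry from subcutaneous fat of male FVB mice aged 4 weeks and lysed with no culture step. There were 2 wild-type samples and 2 samples of Adamts1 transgenic mice, which carry an added gene for a secreted matrix protease, and each sample was on 1 single-colour Agilent array. No sample was treated. Which promoter drives the transgene is not stated in the labels, nor how many animals or founder lines stand behind a sample, so p-values measure only the spread between these samples, which may be technical.

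MHC class II molecules are pairs of an alpha and a beta chain that carry peptides from the endosome to the cell surface, where CD4+ T cells read them. They are made mainly by dendritic cells, macrophages and B cells, and in adipose tissue they are best known from its macrophages and dendritic cells. The invariant chain blocks the peptide groove until proteases such as cathepsin S cut it down, H2-DM swaps the last fragment for other peptides, and H2-O holds H2-DM back. Ciita joins the RFX, CREB and NF-Y factors at class II promoters and turns the whole group on.

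Of the 10 genes 8 were tested, and 3 of these were higher in the transgenic samples: H2-Aa, H2-Ab1 and Cd74, each by about an order of magnitude. H2-Eb1, the other classical beta chain gene, differed by 1.10-fold and did not pass the test. H2-DMa and H2-DMb1 were 2.07-fold and 1.97-fold higher without passing, and none of the 8 was called lower. The test was limma with Benjamini-Hochberg adjustment over 24518 features, and an adjusted p under 0.05 was called. Of all features, 1.73% were called in either direction, 0.967% as higher and 0.759% as lower. The 8 members had a median log2 difference of 1.01, against -0.02 over all features. Of the 8, 3 had passed the filter on dim probes through the transgenic arrays alone: H2-Aa, H2-Oa and H2-Ob. This can lean the counts of higher genes upward. With only probes above background on all 4 arrays, 5 members were tested and 2 called, Cd74 and H2-Ab1. Their median was then 1.05 over the 5, against -0.05 over all features. Both transgenic arrays lay above both wild-type arrays for 6 of the 8, H2-Aa and H2-Oa among them, as they did for 24.5% of all features. No tested member had both below, against 28.6% of all features.

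**Figure D1:**
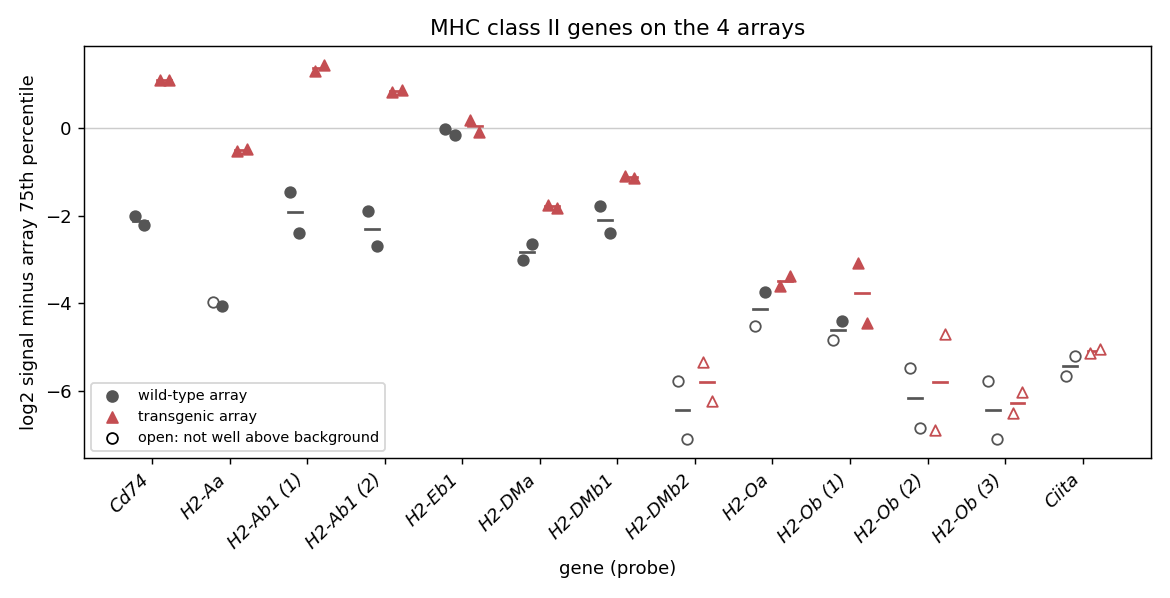
Log2 level of each MHC class II gene on each of the 4 arrays, relative to the array's 75th percentile, with 1 point per array (circles wild-type, triangles transgenic), a bar for each group's mean, and open points where the probe was not well above background. The transgenic points of H2-Aa, H2-Ab1 and Cd74 sit about 3 log2 units above the wild-type points, while those of H2-Eb1 overlap.

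Values below are log2 processed signals minus the array's 75th percentile, so that 0 is that percentile itself, and wild-type sample 1 stood apart in having fewer measurable spots. There 47.0% of spots were well above background, against 55.5% to 57.0% for the other arrays. The arrays shared 1 slide, with the wild-type samples at positions 1 and 2 and the transgenic samples at positions 3 and 4, so position and genotype cannot be told apart. The Adamts1 probe read 6.65 and 6.73 in wild-type against 6.77 and 6.82 in transgenic samples, a difference of 0.11 ± 0.09 (SE, n = 2 per group, limma adjusted p = 0.573). Whether that probe lies in the transgene was not known here, so it does not check the labels. For one gene on 2 against 2 arrays, the smallest p of an exact permutation test is 0.333. In bulk RNA, fewer cells of a type and less RNA per cell cannot be told apart.

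H2-Aa encodes the alpha chain of the I-A molecule. Its probe lies at chr17:34421285-34421344 (mm9), near the 5′ end of the transcript at bases 227 to 286, and is shown whole because H2-Aa was one of the 3 called genes:
H2-Aa probe: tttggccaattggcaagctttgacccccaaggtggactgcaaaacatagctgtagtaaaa
The log2 level was -3.98 and -4.07 in wild-type and -0.52 and -0.47 in transgenic samples. The groups lay far apart and the arrays within each nearly coincided. The difference was 3.53 ± 0.19 (SE, n = 2 per group), or 11.5-fold with a 95% interval of 8.25 to 16.1, and limma's adjusted p was 0.0128. The probe was not well above background on wild-type array 1. With the floor of that array, its lowest value flagged well above background, in place of the probe's value, the fold was 10.1. Unflagged probes can read above that floor, so it sets no strict bound. Processed signals were 15.2 and 19.9 against 248 and 252.

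H2-Ab1 encodes the beta chain that pairs with it, and was read by 2 probes at chr17:34406296-34406355 and chr17:34406305-34406363 (mm9). They share 51 bases and differ within them at 1 base, T51C, counted from the 5′ end of the first probe. The stretches around that base, capitalised, show that the pair is close to 1 measurement made again:
H2-Ab1 probe 1: agattacaaataaacgagacTcagactctg
H2-Ab1 probe 2: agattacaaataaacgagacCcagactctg
Probe 1 read -1.46 and -2.39 in wild-type and 1.30 and 1.45 in transgenic samples. Both transgenic arrays were higher, and the wild-type arrays differed from each other more than for H2-Aa. H2-Ab1 rose by 3.30 ± 0.31 (SE, n = 2 per group), or 9.85-fold, with a 95% interval of 2.51 to 4.09 on the log2 scale and a limma adjusted p of 0.0254. Probe 2 read -1.90 and -2.70 against 0.83 and 0.87, and in a limma fit over 29387 probes it was 8.87-fold higher (adjusted p = 0.0243).

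H2-Eb1 encodes the beta chain of the I-E molecule, the other classical class II pair of the mouse. Its probe lies at chr17:34453075-34453134 (mm9), within bases 1124 to 1183 of the transcript, and its first bases are printed to mark the stretch that was read without a called difference:
H2-Eb1 probe, first 30 bases: ggcacttctgagccagtctgctgtcatatg
The wild-type samples read -0.01 and -0.16 and the transgenic samples 0.18 and -0.08. The groups overlapped, with transgenic sample 2 between the wild-type samples, and the probe was well above background on all 4 arrays. The difference was 0.13 ± 0.15 (SE, n = 2 per group), 1.10-fold with a 95% interval of 0.846 to 1.42 (limma adjusted p = 0.665), an interval that lies below the folds of H2-Aa and H2-Ab1. Taken within each array, H2-Ab1 minus H2-Eb1 was -1.45 and -2.23 in wild-type against 1.13 and 1.53 in transgenic samples, with both probes well above background on every array. These values do not depend on a shift of whole arrays, and show unequal change between the 2 probes. Class II genes vary between mouse strains, and whether the probe of H2-Eb1 matches the FVB allele was not tested. The probes of the alpha chain pseudogene H2-Ea-ps and of H2-Eb2 were not well above background on any array.

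**Figure D2:**
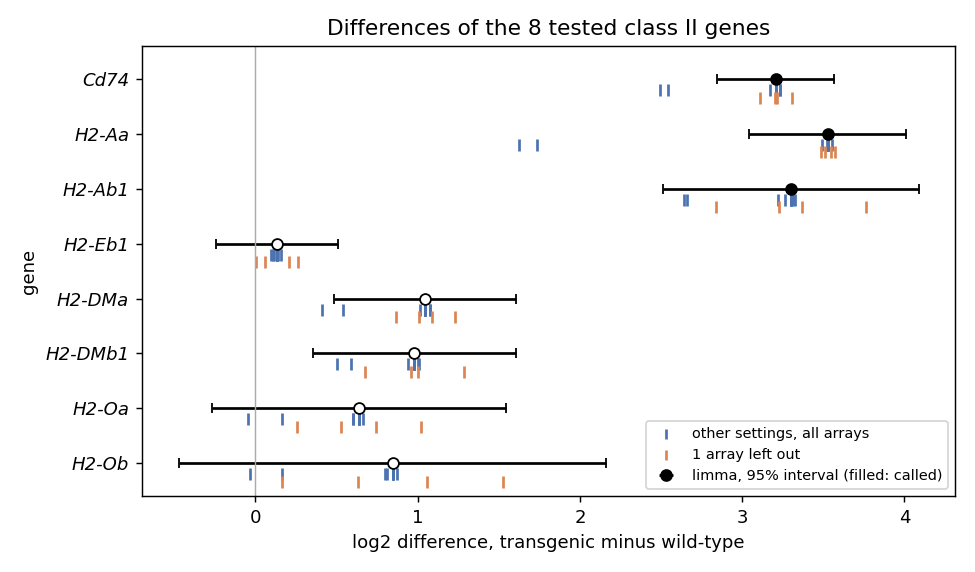
Log2 difference, transgenic minus wild-type, for each tested MHC class II gene, with bars for the 95% interval of the limma fit on 2 arrays per group, filled points for called genes, and ticks below for the other settings (blue, all arrays; orange, 1 array left out). The intervals of H2-Aa, H2-Ab1 and Cd74 lie above 2, and that of H2-Eb1 spans 0.

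H2-DMa and H2-DMb1 encode the chains of H2-DM, the exchange factor that edits the peptides class II molecules carry. The H2-DMa probe, at chr17:34274300-34274863 (mm9), is shown as the only one on the array for this alpha chain:
H2-DMa probe: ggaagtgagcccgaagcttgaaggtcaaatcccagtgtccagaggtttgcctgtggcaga
It read -3.01 and -2.65 in wild-type and -1.75 and -1.83 in transgenic samples. The groups did not overlap, and the difference of 1.05 ± 0.22 (SE, n = 2 per group) had a limma adjusted p of 0.0987. H2-DMb1 read -1.79 and -2.39 against -1.09 and -1.13, again with no overlap, and its difference of 0.98 ± 0.25 had an adjusted p of 0.137 (limma, n = 2 per group). H2-DMb1 was called without wild-type replicate 1 (adjusted p = 0.036) and H2-DMa without wild-type replicate 2 (adjusted p = 0.0315). With normexp background correction the differences were 0.41 for H2-DMa (adjusted p = 0.219) and 0.50 for H2-DMb1 (adjusted p = 0.276). H2-DMb2 is a close copy of H2-DMb1, and its probe was not well above background on any array, with processed signals of 2.43 to 8.71. Reads of such paralogs are uncertain, because either probe may bind the other's RNA.

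H2-Oa and H2-Ob encode the chains of H2-O, the inhibitor of H2-DM, best known from B cells. H2-Oa read -4.51 and -3.74 in wild-type and -3.60 and -3.38 in transgenic samples, and was not well above background on wild-type array 1. The arrays did not overlap, but the difference of 0.64 ± 0.36 (SE, n = 2 per group) had a limma adjusted p of 0.396. H2-Ob read -4.83 and -4.40 against -3.09 and -4.45, so that transgenic array 1 alone stood out (0.84 ± 0.52, n = 2 per group, limma adjusted p = 0.433). The other 2 probes of H2-Ob were not well above background on any array. Neither inhibitor chain passed the test, and their 95% intervals on the log2 scale ran from -0.27 to 1.54 for H2-Oa and from -0.47 to 2.16 for H2-Ob. With normexp background correction both directions turned, to -0.045 for H2-Oa and -0.036 for H2-Ob.

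Cd74, the invariant chain, lies apart from the class II region, with a probe at chr18:60972075-60972132 (mm9). It read -2.01 and -2.21 in wild-type and 1.09 and 1.10 in transgenic samples, all well above background. The transgenic arrays nearly coincided and lay far above both wild-type arrays. Cd74 rose by 3.21 ± 0.14 (SE, n = 2 per group), or 9.24-fold with a 95% interval of 7.19 to 11.9 and a limma adjusted p of 0.0128. In processed signal this was 59.4 and 72.02 against 754 and 752. With normexp background correction the differences were smaller, at 2.50 for Cd74, 1.62 for H2-Aa and 2.64 for H2-Ab1, all still called. Without an intensity trend in the variance none was called, with limma adjusted p of 0.05003 for Cd74 and H2-Aa and 0.0887 for H2-Ab1, and no feature of the array was.

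Ciita, the transactivator, was read by a single probe at chr16:10526568-10526627 (mm9), toward the end of a long transcript. Its values were -5.66 and -5.20 in wild-type and -5.13 and -5.04 in transgenic samples, with processed signals from 4.72 to 10.66. None of the 4 was well above background, so Ciita was not tested and its level in either group has only an upper bound. The 10 genes of the factors that work with it at class II promoters were all tested. None was called, with a median log2 difference of 0.05. The smallest p values were those of the coactivator Crebbp (-0.20 ± 0.10), the RFX subunit Rfxank (0.16 ± 0.14) and the coactivator Ep300 (0.16 ± 0.16), and the brightest probe, of the NF-Y subunit Nfyc, read 4.09, 4.02, 4.01 and 4.09.

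The class II genes lie together on chromosome 17, and the array covers chr17:34232033-34481528 (mm9), 249 kb, with 23 probes. Of these, 13 read class II genes, H2-Eb2 and H2-Ea-ps included, and 3 of them were called in the probe-level fit, in which 1.75% of 29387 probes were. Between them lie genes of the class I pathway and Brd2, a bromodomain protein. None of the 6 tested probes of these other genes was called, and their log2 differences ran from -0.28 for Brd2 to 0.56 for the peptide transporter Tap1. The immunoproteasome genes Psmb9 and Psmb8 differed by 0.18 and 0.09, and Tap2 by 0.09.

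**Figure D3:**
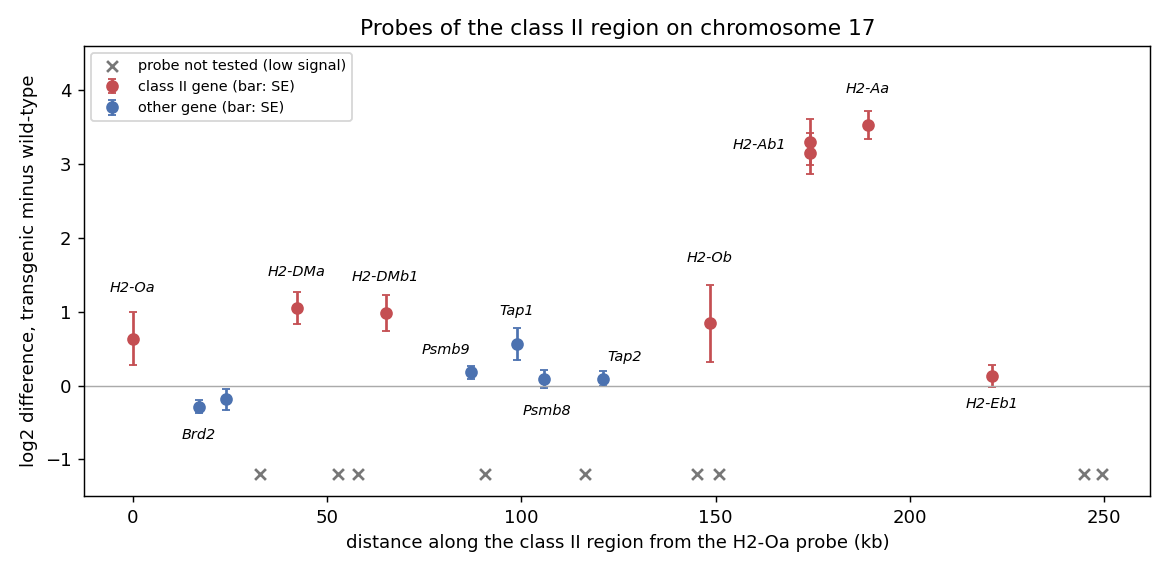
Log2 difference, transgenic minus wild-type, of the probes along the class II region against distance in kb from its first probe, with red points for class II genes, blue points for others, bars for the SE and crosses for probes not tested. The H2-Ab1 and H2-Aa probes stand above 3 next to H2-Eb1 at 0.13, and the other genes between them run from -0.28 for Brd2 to 0.56 for Tap1.

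The proteases that trim the invariant chain belong to the endosomal processing list, of which 15 genes were tested and none passed, with a median of -0.02. Cathepsin S (Ctss), the protease most tied to invariant chain cleavage, read -3.13 and -4.90 in wild-type and -0.63 and -0.52 in transgenic samples. The groups did not overlap, and the difference of 3.44 ± 0.58 (SE, n = 2 per group) had a limma adjusted p of 0.0623. Its probe was not well above background on wild-type array 2, so it passed the filter through the transgenic arrays alone. Ctss was called in 4 of 9 other settings on all arrays, among them normexp, where its difference was 1.56 (adjusted p = 0.0264), and without either wild-type array (adjusted p = 0.0146 without replicate 1 and 0.00454 without replicate 2). Cathepsin L (Ctsl), the brightest of the list, read 8.58, 8.37, 8.13 and 8.19, and Ctsd and Ctsc differed by -0.42 ± 0.09 and 0.41 ± 0.12 without passing.

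In the class I pathway, which presents peptides of the cytosol, 1 of 22 tested genes rose and none fell, with a median of -0.01. That gene was Nlrc5, the class I counterpart of Ciita, at -3.43 and -2.57 in wild-type and -0.80 and -0.79 in transgenic samples (2.20 ± 0.32, limma adjusted p = 0.0477, n = 2 per group). It was not well above background on wild-type array 1. Its value there lay above the array's floor of -3.60, so the 4.61-fold is as measured. It passed the filter through the transgenic arrays alone, its call was lost in 5 of 9 other settings on all arrays (adjusted p up to 0.118), and it was lost without transgenic replicate 1 (adjusted p = 0.119) or 2 (adjusted p = 0.109). Its difference was 1.13 with normexp background correction. H2-D1, a class I heavy chain with the brightest probe, read 7.56 and 7.71 against 7.62 and 7.54. Tapbp and Psme1 differed by -0.34 ± 0.09 and -0.30 ± 0.09 without passing.

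Of 10 tested costimulation and checkpoint ligands, which accompany peptide presentation, 1 fell and none rose. Cd24a, a small glycoprotein also used to sort progenitor cells, fell by 1.58 ± 0.11 on the log2 scale (limma adjusted p = 0.0162, n = 2 per group), from 1.62 and 1.5 to 0.01 and -0.04. The activation marker Cd83 read -1.21 and -1.96 against 0.26 and 0.07, with an adjusted p of 0.0547 (limma, n = 2 per group). Cd86, a ligand of T cell CD28, was above background in the transgenic samples alone (adjusted p = 0.0711, limma, 1.59-fold higher with wild-type values at the floor). The brightest probe of the list, of Tnfsf9, read 3.73 and 3.93 against 3.29 and 3.48, without passing. Interferon gamma induces Ciita in many cells, and of 21 tested genes of its pathway none was called, with a median of 0.19. The GTPase Iigp1, the kinase Jak2 and the factor Irf1 had differences of 0.89 ± 0.19, 0.43 ± 0.09 and -0.62 ± 0.14.

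**Figure D4:**
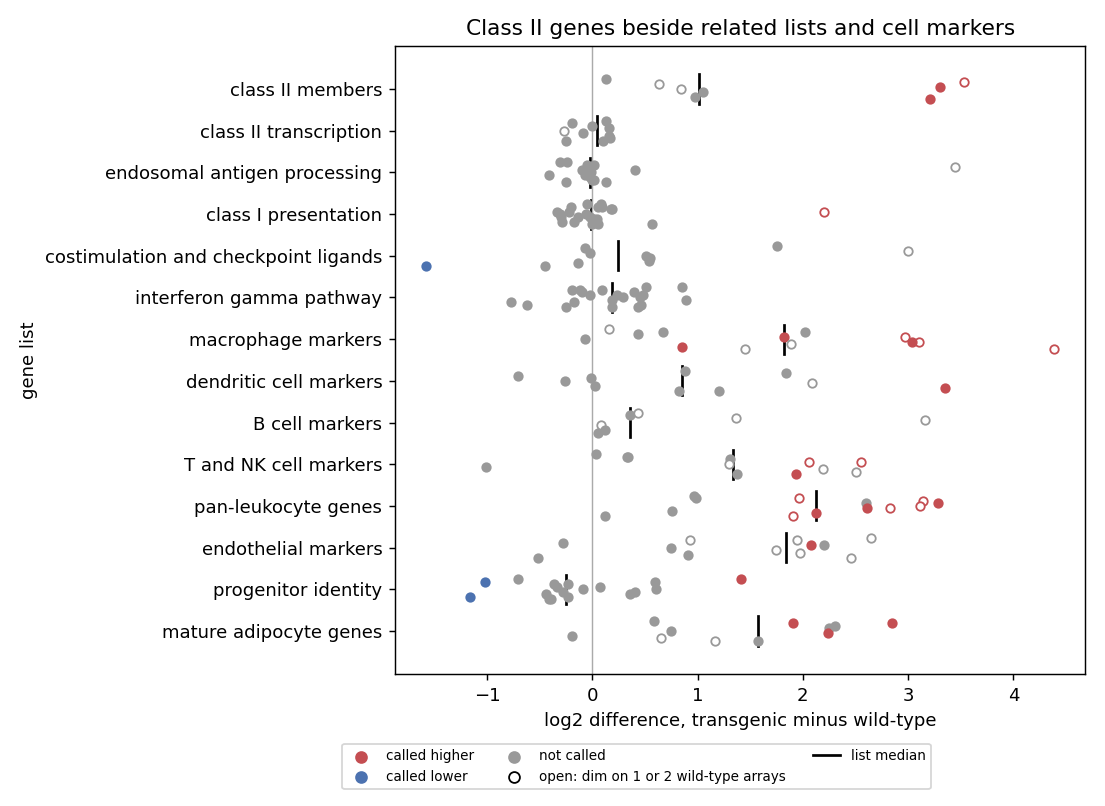
Median log2 difference, transgenic minus wild-type, of the tested genes in each gene list, as a vertical bar, with its genes as points coloured red where called higher, blue where called lower and grey otherwise, open where dim on a wild-type array. The class II, macrophage, T and NK cell, pan-leukocyte, endothelial and mature adipocyte lists have medians above 1, and class II transcription, class I presentation and endosomal processing lie near 0.

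Some markers of other cell types were also higher in the transgenic samples and others were not, and their part in the result was not tested. Over all lists outside the members 24 genes were called higher and 3 lower of 175 tested, and the count of 27 was 8 with either transgenic array left out and 0 without the intensity trend. Passing the filter through the transgenic arrays alone were 6 of the 13 tested macrophage genes, 5 of 13 pan-leukocyte genes and 6 of 12 endothelial genes, which leans these counts upward. Of 13 tested macrophage markers 6 rose, with a median of 1.82, or 1.10 with dim wild-type values at the floor. The complement gene C1qc read -3.83 and -3.99 against -0.82 and -0.80, the chemokine Pf4 -2.50 and -2.91 against 0.36 and 0.30, and the mannose receptor Mrc1 -4.08 and -3.81 against -0.88 and -1.05. Summed over the macrophage list, the level was 58.3 and 57.6 in wild-type and 64.2 and 62.2 in transgenic samples, most of it from the bright probe of Itgam, whose difference was -0.07 ± 0.09. Cd163, Fcgr1 and Cx3cr1 were not well above background on any array. Of 13 pan-leukocyte genes 8 rose, with a median of 2.12, or 1.96 with dim wild-type values at the floor. Among them were Coro1a, an actin regulator (2.61 ± 0.18), and Fcer1g, an Fc receptor chain (2.12 ± 0.21). The lysosomal Laptm5 also rose, 2.44-fold with wild-type values at the floor. Arhgdib, the brightest of the list, read 1.82 and 1.73 against 1.98 and 1.81 and was not called. Spi1 was not well above background on any array. The summed level of the pan-leukocyte list was 5.20 and 4.52 against 9.28 and 8.99.

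Dendritic cell and B cell markers were mixed. Of 10 tested dendritic cell markers 1 rose, the lectin Clec10a, which macrophages also make, at -2.78 and -3.34 against 0.35 and 0.23 (3.35 ± 0.23, limma adjusted p = 0.0162, n = 2 per group). The actin bundler Fscn1 and the factor Batf3 differed by 0.88 ± 0.14 and 1.20 ± 0.29 without passing. The defining markers Itgax, Xcr1 and Clec9a were not well above background on any array. Summed over the list, the level was 232 and 223 against 238 and 221, nearly all of it from the bright probe of Siglech, so the sum says little of the other markers. Of 7 tested B cell markers none was called, and Pax5, Bank1, Spib and Vpreb3 were not well above background on any array. Fcmr and Fcer2a passed the filter through the transgenic arrays alone, with differences of 1.36 ± 0.39 and 0.44 ± 0.27. With dim wild-type values at the floor, they were 0.80-fold and 1.28-fold. Ebf1, the brightest of the list, differed by 0.12 ± 0.11. Cd79b, a chain of the B cell receptor, was above background in the transgenic samples alone, with a limma adjusted p of 0.0687 (n = 2 per group). It was 2.45-fold higher with wild-type values at the floor. The summed B cell level was 14.1 and 13.9 against 17.3 and 14.2, most of it from the bright probe of Ebf1.

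Of 12 tested T and NK cell markers 3 rose: the kinases Lck (1.93 ± 0.21) and Zap70 and the receptor chain Cd3d. With dim wild-type values at the floor, Zap70 was 3.62-fold and Cd3d 3.34-fold higher. Of the 12, 5 passed the filter through the transgenic arrays alone, Zap70 and Cd3d included. All 3 calls were lost without either transgenic array, that of Zap70 in 6 of 9 other settings on all arrays and that of Cd3d in 2 of 9, with Cd3d at 0.49 under normexp (adjusted p = 0.253). Cd247, Cd8a, Cd8b1, Il7r, Ncr1 and Klrb1c were not well above background on any array. The summed T and NK cell level was 12.2 and 16.1 against 12.7 and 11.7, most of it from the bright probes of Cd3e and Cd4. Cd3e differed by -1.01 ± 0.29 without passing (limma adjusted p = 0.162), and Cd4 by 0.03 ± 0.10. Of 12 endothelial markers 1 rose, the secreted Egfl7 (2.08 ± 0.24), a call lost without either transgenic array (adjusted p = 0.0696 and 0.0524). The endothelial median was 1.84, or 0.82 with dim wild-type values at the floor. Vwf and Cdh5 had adjusted p of 0.0591 and 0.0639 in the limma fit. The summed endothelial level was 22.8 and 18.4 against 19.8 and 18.6, most of it from the bright probes of Kdr and Tek. Kdr differed by -0.28 ± 0.25 and Tek by -0.51 ± 0.10, both without passing (limma adjusted p = 0.592 and 0.0765). Both transgenic arrays lay above both wild-type arrays for 8 of the 12 markers and below for 1, Tek. Of 11 mature adipocyte genes 3 rose: the fatty acid transporter Cd36 (2.85 ± 0.12), the fatty acid binding protein Fabp4 (2.24 ± 0.11) and the glucose transporter Slc2a4 (1.90 ± 0.16), with summed levels of 297 and 292 against 509 and 520. Lpl, the brightest tested gene of that list, differed by 0.59 without passing (limma adjusted p = 0.0707).

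The labelled cell type was checked against 18 progenitor identity genes, all well above background on all 4 arrays. In that list 1 gene rose, the adipogenic receptor Pparg (1.41 ± 0.08), and 2 fell, the ectonucleotidase Nt5e (by 1.02 ± 0.09) and the interstitial progenitor marker Pi16 (by 1.16 ± 0.15). Dcn, a matrix proteoglycan with the brightest probe, read 10.22 and 9.79 against 9.78 and 9.77. The median log2 difference of the 18 was -0.25. On both transgenic arrays 5 genes lay above and 12 below both wild-type arrays, against 24.5% and 28.6% of all features. The summed progenitor level was 4756 and 3900 against 3325 and 3295. A large part of it came from the bright probes of Pi16 and Dcn, so the sum says little of the other genes. The summed class II level was 2.20 and 1.87 against 7.45 and 7.46.

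The genes whose profile over the 4 arrays came nearest to the mean-centred average of Cd74, H2-Aa, H2-Ab1 and H2-Eb1 were Cbr2, Inpp5d, Folr2, Rgs5, Acta2, Plcg2, Dysf and Nckap1l, with root mean square differences from 0.08 to 0.12 log2 units. They were picked for this likeness, so their differences are a description with no test. Inpp5d, Rgs5 and Nckap1l were well above background on no wild-type array, and Plcg2 and Dysf on only 1. These genes thus passed the filter through the transgenic arrays alone. Cbr2, a carbonyl reductase, read -1.53 and -1.74 against 0.79 and 0.94, and Folr2, a folate receptor of tissue macrophages, -2.97 and -3.49 against -0.51 and -0.53. Acta2, the smooth muscle actin, read -1.90 and -1.97 against 0.63 and 0.74. H2-Eb1 itself lay 1.21 from the average it was part of, H2-Aa 0.50, H2-Ab1 0.44 and Cd74 0.34. Each thus lay farther from it than the genes picked.

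Class II promoters share an X box and a Y box, bound by RFX and NF-Y, at which Ciita acts. RefSeq promoters on GRCm38.p6, from 250 bases before to 50 after a start site of the reference mouse strain and not of FVB, matched 7 of the 10 genes, with 8 promoters, and none was matched for Cd74, H2-Ab1 and Ciita. The Y core searched was ATTGG and the X core AACNGAT, on both strands, both chosen after the sequences were seen, and the 2 do not overlap. The stretches below surround the Y core of 6 genes and are set together because they include H2-Aa, which rose, and H2-Eb1, which was not called. Capitals mark the Y core and, where present, the X core:
H2-Aa promoter: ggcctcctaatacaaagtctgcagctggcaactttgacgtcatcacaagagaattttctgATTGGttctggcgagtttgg
H2-Eb1 promoter: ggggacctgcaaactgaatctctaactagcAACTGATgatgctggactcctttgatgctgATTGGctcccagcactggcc
H2-DMb1 promoter: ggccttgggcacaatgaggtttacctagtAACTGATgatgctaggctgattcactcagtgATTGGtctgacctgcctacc
H2-DMb2 promoter: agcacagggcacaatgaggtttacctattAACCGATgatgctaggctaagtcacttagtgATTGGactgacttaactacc
H2-Oa promoter: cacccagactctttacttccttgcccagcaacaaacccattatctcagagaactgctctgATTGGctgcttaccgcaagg
H2-Ob promoter: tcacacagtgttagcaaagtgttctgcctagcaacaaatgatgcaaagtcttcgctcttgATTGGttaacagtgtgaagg
All 7 genes had a Y core in the window, which 37.4% of 32851 promoters hold, and 3 had an X core, which 6.94% hold. An X core followed on the same strand by a Y core within 60 bases was in 3 of the 7, H2-Eb1, H2-DMb1 and H2-DMb2, against 0.170% of all promoters. In these the cores began 30, 31 and 31 bases apart. H2-Eb1, with both cores, did not pass the test, and H2-Aa, with a Y core at -48 bases from the start and no X core of these letters, rose. A match of letters is a description and not a bound site.

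**Figure D5:**
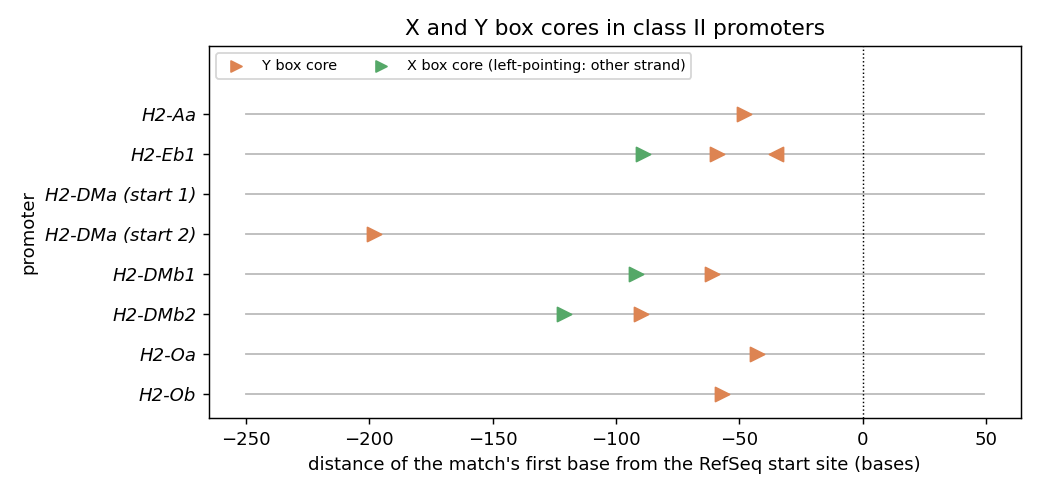
Position of Y core and X core matches in the promoter windows of the MHC class II genes, in bases from the RefSeq start site, with 1 row per promoter, orange for the Y core, green for the X core, and left-pointing marks for the other strand. Y cores on the gene's strand sit at -90 to -43 bases in 6 genes and at -198 in the second H2-DMa promoter, H2-Eb1 has another at -35 on the other strand, and X cores lie 30 or 31 bases before the Y core in H2-Eb1, H2-DMb1 and H2-DMb2.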

How the data were processed

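RNA of 2 wild-type and 2 transgenic samples carried Cy3 and was read on Agilent mouse arrays of design 028005, by Feature Extraction 10.7.3.1 and with mm9 coordinates, per the file headers. The deposited processed intensity has background subtracted and spatial trend removed, per the file headers. How the authors made the deposited log2 value table is not stated. Against log2 processed signals shifted and centred per probe, its columns had r of 0.9998 to 1.0000 and medians of 0.193, -0.021, -0.045 and 0.019; its scale and centring are known from this alone.

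Control and outlier spots were left out, spots of a probe were averaged, and each array's 75th percentile over non-control spots was subtracted. RefSeq accessions (GRCm38.p6, for names alone) gave current symbols: they named 26582 of 55681 probes and renamed 2892. The probe with the highest mean stood for its gene, which was tested where all arrays of a group (1 or both) read that probe well above background. limma 3.58.1 in R 4.3.3 (eBayes with intensity trend, residual degrees of freedom 2, prior 3.34, 2-sided) tested 24518 features, with Benjamini-Hochberg adjustment over all. In data simulated from the fit's own variances, it recovered 0.9% of 1.5-fold, 23.8% of 2-fold, 69.2% of 4-fold and 87.8% of 8-fold changes. False calls were 4.9 per draw. A gene without a call is therefore not shown to be unchanged. Signal over background limits what an array measures, and the number of arrays limits the precision.

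The members and lists were chosen with earlier results of these data known. The text names all 10 members, per list the 3 tested genes with the smallest p and the one with the highest mean, and the 8 genes nearest in profile. Genes at background on every array were named after their values were seen, as were Tek and Cd4 for their share of a summed level. Exon annotation was not used here.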

Additional observations from a re-analysis of the deposited data

How the results depend on the processing

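Settings were 10 that used all arrays and 4 that left 1 out. Cd74 and H2-Ab1 were called in 9 of the 10 and H2-Aa in 8 of 9, and all 3 in each of the 4. Without the intensity trend no feature, member or fixed-list gene was called (0 in each, lowest adjusted p 0.05003), though 4124 features and 5 members had an unadjusted p under 0.05. Normexp background correction with the 75th percentile lowered Cd74 to 2.50, H2-Aa to 1.62 and H2-Ab1 to 2.64 on the log2 scale, and normexp with quantile normalization gave 277 called features against 423. Without a filter on dim probes 695 were called. With only probes above background on all 4 arrays, fixed-list genes called were 16 against 27, H2-Aa was not tested and 2 members were called. With the replicate block 774 features and 44 fixed-list genes were called, and the members called stayed at 3. Whether same-numbered samples were paired is not stated in the labels. Deviations of same-numbered arrays correlated at 0.0032 over features, which cannot settle it. Leaving out 1 array gave 3 to 4 members called, 90 to 3998 features and 8 to 74 fixed-list genes: 1295 without wild-type replicate 1, 3998 without wild-type replicate 2, 90 and 114 without transgenic replicates 1 and 2. The fourth member was H2-DMb1 without wild-type replicate 1 (adjusted p = 0.036) and H2-DMa without wild-type replicate 2 (adjusted p = 0.0315). The lone sample is then assumed to vary like the other group. The cause of these changes was not tested. The share of calls that were higher was 56.0%, and it was 49.8% under normexp, 65.3% under normexp with quantile, 64.7% under quantile, 49.7% under the median shift, 52.7% with the replicate block, 39.0% and 37.6% without wild-type replicates 1 and 2, and 81.6% without transgenic replicate 2. Some uncalled genes changed sign. Under normexp H2-Oa was -0.045 against 0.64, H2-Ob -0.036 against 0.84, Btnl2 -0.015 against 0.44, Nfyc 0.062, H2-D1 0.0036 and Fcer2a -0.025 against 0.44. Under normexp with quantile Nfyc was 0.055, H2-D1 0.13, Cxcl11 0.10, Itgam 0.020 and Dcn 0.20, and under quantile Nfyc 0.042, H2-D1 0.10, Cxcl11 0.12, Itgam 0.032 and Dcn 0.22. Siglech was -0.015 under the median shift, and with the mean over probes Siglech was -0.031, Nfyc 0.055 and Itgam 0.058. Nfyc was 0.021 in the authors' value table. Leaving out 1 array gave ranges of -0.043 to 0.032 for Nfyc, -0.13 to 0.024 for H2-D1, -0.044 to 0.085 for Siglech and -0.66 to 0.11 for Kdr.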

Other observations

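Some probes named for lymphoid and myeloid genes were bright on every array and were not called, beside dim probes of the same lists that were called. Siglech, a lectin of plasmacytoid dendritic cells, read 7.69 and 7.63 in the wild-type and 7.75 and 7.62 in the transgenic samples. Itgam, an integrin of myeloid cells, read 5.56 and 5.60 against 5.56 and 5.47. Cd3e, a T cell receptor chain, read 2.45 and 3.34 against 1.97 and 1.80, lower on both transgenic arrays (-1.01 ± 0.29, limma adjusted p = 0.162), and it was called lower without wild-type replicate 1 (adjusted p = 0.0167) or 2 (adjusted p = 0.0477). The chemokine Cxcl11 read 9.38 and 9.13 against 9.02 and 9.10, also lower on both transgenic arrays (-0.19 ± 0.14).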
